A study of Homo sapiens with 8 samples.

Results

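The Pbx4-only intergenic sites were the 51319 Pbx4 peaks, of 153620 in all (33.4%), that lay away from protein-coding genes and from every HoxC5 peak. Members were chosen by 5 steps. Of the 153620 peaks, 153551 were on chromosomes 1 to 22 and X, 151032 of those were under 1000 bp wide, 108978 of those overlapped no peak of any HoxC5 list, 52363 of those had the summit outside every protein-coding gene body, and 51319 of those had the summit over 1 kb from every protein-coding transcription start site (TSS). The Pbx4 call, its width and the lack of a HoxC5 call thus selected the members, and these measures are given as a description with no test.

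PC-3 is an established prostate cancer cell line of epithelial origin. Pbx4 was profiled by ChIP-Seq with an anti-Pbx4 antibody in 1 library of PC-3 cells overexpressing Pbx4, and HoxC5 with an anti-HoxC5 antibody in 2 libraries of unmodified PC-3 cells (endogenous HoxC5) and 1 library of PC-3 cells overexpressing HoxC5. The overexpressed proteins carried a Flag tag and came from a lentiviral vector, so the Pbx4 peaks are those of an overexpressed protein. HoxC5 was not profiled in the cells that overexpressed Pbx4, so a site without a HoxC5 peak is one that was not called in other cells. The HoxC5 lists held 67196 peaks for the overexpressed protein and 2525 and 170 for endogenous replicates 1 and 2. The Pbx4 list was called to a highest q-value of 0.0490 and the overexpressed HoxC5 list to one of 0.00997, so the lists were not equally strict. The lists hold no read totals and the depth of each library is unknown here. There was 1 Pbx4 library, so no value below has a replicate error, sites of that library are not replicates of a condition, and intervals are 95% exact Clopper-Pearson intervals for shares that cover counting error only.

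Pbx4 is a homeodomain protein of the TALE class, whose other members include the Meis proteins. Pbx proteins bind DNA with Hox proteins at joint words such as TGATTGAT and TGATTAAT and with Meis proteins at words such as TGATTGAC and TGACAG, and Meis proteins bind TGACAG on their own. Many intergenic binding sites of such factors are enhancers, which in epithelial cells also carry words of AP-1, the dimer of Fos and Jun proteins, and of TEAD, the DNA-binding partner of YAP.

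The sequences below span 50 bp on either side of 6 summits (GRCh37, plus strand) and are shown because they hold, or at the head of the list lack, the words that the results turn on. They are named by the nearest protein-coding gene. Capitals mark the AP-1 word TGACTCA (complement TGAGTCA), the Meis word TGACAG (complement CTGTCA) and the Hox-Pbx words TGATTGAT and TGATTAAT.
TESC: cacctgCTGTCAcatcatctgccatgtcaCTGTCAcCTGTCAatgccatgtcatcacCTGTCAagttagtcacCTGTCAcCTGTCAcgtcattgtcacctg
GALNT3: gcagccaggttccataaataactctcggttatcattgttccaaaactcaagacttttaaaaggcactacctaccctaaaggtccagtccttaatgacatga
KRTAP1-5: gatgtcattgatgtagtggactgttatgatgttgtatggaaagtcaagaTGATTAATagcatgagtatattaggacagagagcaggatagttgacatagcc
GCNT2: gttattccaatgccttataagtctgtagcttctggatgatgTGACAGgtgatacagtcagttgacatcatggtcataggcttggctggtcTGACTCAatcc
ETS1: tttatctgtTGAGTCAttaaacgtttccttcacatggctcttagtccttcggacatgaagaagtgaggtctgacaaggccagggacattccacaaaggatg
LBH: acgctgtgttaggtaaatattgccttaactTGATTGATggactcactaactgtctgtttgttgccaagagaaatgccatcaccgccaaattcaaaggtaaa

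The site of highest fold enrichment also had the lowest q-value and held the Meis word 6 times. It lay at chr12:117565709-117566596, 28.9 kb upstream of the TSS of TESC, which encodes the calcium-binding protein tescalcin, with a fold of 35.5 over background and a −log10 q of 112. Its 6 copies of CTGTCA stood among 6 copies of CAGGTG or its complement, with which they shared letters, and the nearest HoxC5 peak was 11.9 kb away. The third site by fold, at chr2:166602330-166602936, was 15.7 kb downstream of the TSS of GALNT3, which starts mucin-type O-glycosylation, with a fold of 29.2 and a −log10 q of 93.7. It held none of the words marked in capitals.

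The fourth to the tenth sites by fold ran from 29.1 to 26.0. They were nearest to DYRK2, a protein kinase (fold 29.1, 65.6 kb from the TSS), EDN2, an endothelin peptide (28.5, 19.6 kb), MBOAT2, a lysophospholipid acyltransferase (27.5, 1.34 kb), KRTAP1-5, a hair keratin-associated protein (26.5, 6.69 kb), GCNT2, which branches glycan chains (26.4, 20.7 kb), GATA3, a zinc finger transcription factor (26.4, 570 kb), and BTBD3 (26.0, 503 kb). The MBOAT2 site was 0.499 kb from the nearest HoxC5 peak and the GATA3 site 225 kb, so sites close to and far from HoxC5 peaks were found among them. The site near KRTAP1-5, at chr17:39176574-39176990, held TGATTAAT beside its summit and was the site of lowest q with that word (−log10 q 64.8). The site near GCNT2, at chr6:10471518-10472491, held both TGACAG and TGACTCA (−log10 q 64.0).

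By q-value, the site at chr14:54317399-54318010 came second, with a −log10 q of 109 at a fold of 16.6, and lay downstream of the TSS of BMP4, a ligand of the TGF-beta superfamily. The sites near NRBF2, an autophagy factor (−log10 q 93.0, fold 17.4), and TNFSF18, a ligand of the tumour necrosis factor family (92.9, fold 16.8), completed the 5 of lowest q. Of sites with TGACTCA, that of lowest q was at chr11:128328182-128328723, 46.9 kb downstream of the TSS of ETS1, a transcription factor (fold 24.7, −log10 q 81.0). For TGATTGAT it was at chr2:30440483-30441245, 13.3 kb upstream of LBH, a transcriptional cofactor (fold 17.6, −log10 q 49.2).

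Across the members, the median fold was 5.99 (interquartile range 4.71 to 7.95, full range 2.04 to 35.5). The median −log10 q was 7.98 and the median width 279 bp (interquartile range 213 to 382 bp). The 18246 intergenic Pbx4 peaks under 1000 bp that overlapped a HoxC5 peak, called HoxC5-shared here, were wider and stronger, with a median width of 414 bp, a median fold of 8.5 and a median −log10 q of 18.0. The 53022 Pbx4-only peaks whose summit lay inside a protein-coding gene and over 1 kb from a protein-coding TSS, called Pbx4-only genic, were close to the members, at 276 bp, 5.84 and 7.97. The 5 widest members (997 to 999 bp) had a median fold of 9.84 and the 5 next peaks at or just over 1000 bp one of 9.06. The 5 members closest to a TSS (1002 to 1006 bp) had a median fold of 6.36 and the 5 next outside (995 to 1000 bp) one of 5.26.

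Most narrow intergenic Pbx4 peaks had no HoxC5 peak, and fewer of the strongest ones lacked it. The members made up 73.8% (95% interval 73.4 to 74.1%) of the 69565 intergenic Pbx4 peaks under 1000 bp. In 10 classes of near-equal size by rising Pbx4 fold, the share was 84.7% in the weakest, 87.1% in the second, 81.0% in the fifth, 66.4% in the eighth and 41.2% in the strongest. Many members had a HoxC5 peak nearby. The distance to the nearest one had a median of 10.9 kb, with the 10th percentile at 0.924 kb and the 90th at 76.1 kb. It was at most 500 bp for 2711 members (5.28%), at most 10 kb for 24573 (47.9%) and over 100 kb for 3627 (7.07%). The 5 members nearest to a HoxC5 peak, 1 to 3 bp away, had a median fold of 4.59.

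The sequence at the summits was not used to choose the members and was compared with a window 1 kb to the right of each site. The word of AP-1, TGACTCA, stood out at the summits. By the difference in percentage points, the words of TEAD, C/EBP and NFI and the Meis word TGACAG came next. By the ratio to windows 1 kb away, TGACGTCA of CREB and ATF (3.38), TGTTTAC of the forkhead factors (2.39) and the Pbx-Meis word TGATTGAC (2.35) came next. TGACGTCA was rare, at 44 summits and in 13 windows 1 kb away. The joint Hox-Pbx word TGATTGAT had nearly equal counts in both windows. Words were sought on both strands within 50 bp of the summit in the 51315 members whose windows held no unknown base, and each pair of windows entered a two-sided exact McNemar test, whose p-values were adjusted by the Benjamini-Hochberg method for 30 words. Of the 30 words, 20 (66.7%) were more frequent at the summit and 6 (20%) less frequent at an adjusted p under 0.05. At least 1 of the 20 words was in 36453 of 51315 summit windows (71.0%) and in 25659 of 51315 windows 1 kb away. The 20 words were picked because they were more frequent at these same summits. The higher count there thus follows from the choice and is a description with no test. The p-values of the McNemar tests compare windows of 1 library and not conditions, and the windows of close sites can overlap.

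TGACTCA was within 50 bp of the summit in 8633 members (16.8%) and in 997 of the windows 1 kb away (1.94%), a ratio of 8.66. The difference was 14.9 percentage points (95% interval 14.5 to 15.2, exact McNemar test, adjusted p at most 1e-290). Within 10 bp of the summit the word was found 1.88 times per kb of sequence, and 400 to 500 bp away 0.214 times, a ratio of 8.77. Words that differ from TGACTCA in 1 letter were sought after the data were seen, in sites without TGACTCA in either window. Of the 19 such words 16 were more frequent at the summit and 2, TGAGCCA and TGAGGCA, less frequent. TGAATCA was found in 7.47% of these summit windows and 1.74% of the windows 1 kb away, and TGACTAA in 5.83% and 1.21%. TGACTCA or a word with 1 letter changed was present at 53.1% of all member summits and in 28.9% of the windows 1 kb away.

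TGACAG, the Meis word, was found at 10.2% of summits and in 6.54% of windows 1 kb away, 3.68 percentage points more (95% interval 3.35 to 4.02, exact McNemar test, adjusted p = 1.07e-100). Its density was 1.27 per kb within 10 bp of the summit and 0.688 per kb at 400 to 500 bp, a ratio of 1.84. The Pbx-Meis word TGATTGAC shares the letters TGAC with it and was rare, at 0.472% of summits against 0.201%, and was 0.271 points more frequent there (adjusted p = 9.91e-14 by the exact McNemar test). The site near TESC held 6 copies of TGACAG and as many of CAGGTG, in a sequence whose letters recur like a tandem repeat, and its repeat content was not tested.

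The joint words of Hox and Pbx were rare and differed among themselves. TGATTGAT was found at 208 summits (0.405%) and in 207 windows 1 kb away (0.403%), a difference of 0.00195 points with an interval of −0.0759 to 0.0798 (exact McNemar test, adjusted p = 1). The sign of this difference turned with small changes of the window or of the sites. TGATTAAT was found at 343 summits (0.668%) and in 255 windows 1 kb away (0.497%), 0.171 points more (adjusted p = 5.23e-04 by the exact McNemar test). TGATTTAT was found in 0.900% and 0.877% (adjusted p = 0.739 by the exact McNemar test). Of the words of Hox proteins alone, TAATGA was more frequent at the summit, in 7.34% against 6.56% (exact McNemar test, adjusted p = 1.36e-06), and TAATTA was less frequent, in 2.04% against 4.36% (exact McNemar test, adjusted p = 4.95e-100). TAATTA is made only of A and T, and windows 1 kb away were slightly poorer in G and C (41.1% ± 10.1, SD over 51315 windows) than the summits (42.3% ± 6.38). Its difference stayed negative in all 14 alternatives, windows paired by GC among them, from −5.2 to −0.974 points. The reason for its lower share at the summits was not tested.

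The words of TEAD, C/EBP, NFI and SOX factors were each more frequent at the summit, by a larger difference than that of TAATGA among the Hox words. GGAATG, the TEAD word, was found at 11.5% of summits and in 5.73% of windows 1 kb away (exact McNemar test, adjusted p = 6.82e-235). TTGCNNAA, of the C/EBP factors, was found in 10.3% and 5.69% (exact McNemar test, adjusted p = 2.24e-165). TTGGCA, of the NFI factors, was found in 9.17% and 5.18%, ACAATG, of the SOX factors, in 9.09% and 6.35%, and CAGGAAG, of the ETS factors, in 5.16% and 2.87%. TGTTTAC, of the forkhead factors, was rarer but had a larger ratio than these, with 3.79% against 1.59%. The words of lowest difference after TAATTA were GTTAAT, of HNF1, at 3.48% against 4.70%, GGGCGG, of the SP and KLF factors of CpG-rich promoters, at 0.711% against 1.36%, and AGATAA, of the GATA factors, at 7.36% against 7.82%. In windows paired by GC the difference for GGGCGG was −0.0871 points and no longer passed. In the 500 sites of lowest q the difference for CAGGAAG was 0 points. The direction for AGATAA flipped when the comparison window lay 5 kb away or when windows were paired by GC.

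**Figure D1:**
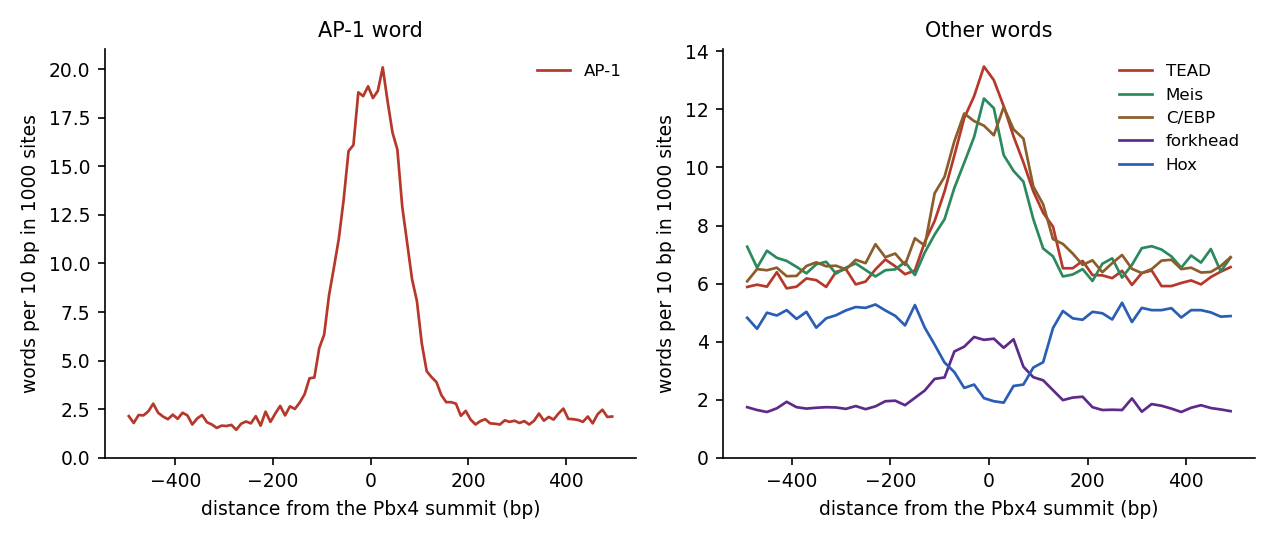
Density of words around the summits of Pbx4-only intergenic sites, by distance from the summit in bp, in words per 10 bp in 1000 sites, for AP-1 on the left and 5 other words (Hox is TAATTA), averaged over 20 bp bins, on the right. The AP-1 word peaks at the summit, the TEAD, C/EBP, Meis and forkhead words have lower peaks there, and TAATTA falls to 0.436 times its density at 400 to 500 bp.

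The search over all words of 6 letters had parts of the AP-1 word at its head. At an adjusted p under 0.05, 777 words (37.4%) were more frequent at the summit and 756 (36.3%) less frequent, so a call on its own says little of a word here. The 10 of largest difference were GAGTCA (21.2% of summits against 4.78%), GACTCA (19.9% against 4.67%), AGTCAT (17.4% against 5.48%), ACTCAT with AGTCAC after it, then ATGACA (12.9% against 6.23%), TCATCA (12.8% against 6.20%), ACTCAC ahead of GATGAC (9.78% against 3.46%) and ATGTCA (12.0% against 5.74%). Of the 30 of largest difference, 21 held at least 4 letters in a row of the AP-1 word and 10 at least 5, and the letters TGAC of the AP-1 word stand in the Meis word too. The 5 of lowest difference were AAAAAT (12.4% against 24.2%), AAAAAA (8.21% against 19.6%), AAAATA, then TAAAAA and last AAAATT, and 19 of the lowest 30 were made only of A and T. In the 41842 sites without TGACTCA in either window, a selection made after the data were seen, 792 words were more frequent and 707 less frequent. There AGTCAT led with ATGACA (13.6% against 6.31%) and ATGTCA (12.5% against 5.75%), ahead of CATTCC, the complement of the TEAD word, at 11.9% against 5.76%.

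Some words were rarer at summits with the AP-1 word than at summits without it and others were more frequent. C/EBP words were found at 6.44% of the 8633 summits with TGACTCA and at 11.1% of the 42682 without it. The shares were 9.23% and 11.9% for TEAD, 8.55% and 10.6% for TGACAG, 6.49% and 9.71% for NFI, 2.14% and 4.12% for forkhead and 0.266% and 0.433% for TGATTGAT. CAGGTG, the word of the SNAI and ZEB repressors, was found at 10.8% of summits with TGACTCA and 8.18% of those without. TAATGA was found at 8.06% and 7.20%, TGATTGAC at 0.568% and 0.452%, GGGCGG at 0.799% and 0.694% and CAGCTG, an E-box, at 5.43% and 5.23%. These are descriptions with no test.

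The members differed from the HoxC5-shared intergenic sites most in AP-1, which was more frequent where HoxC5 was also called, and in C/EBP, which was more frequent where it was not. TGACTCA was at 16.8% of member summits and 26.6% of HoxC5-shared summits, a difference of −9.73 points (95% interval −10.4 to −9.01, two-sided Fisher's exact test, adjusted over 30 words and 2 comparisons, p = 6.15e-169). Of the 30 words 5 (16.7%) were more frequent at the members and 10 (33.3%) less frequent. TTGCNNAA was at 10.3% of member and 7.89% of shared summits, 2.43 points more (Fisher's exact test, adjusted p = 4.41e-21). The other 4 that were higher at the members were AGATAA (7.36% against 5.44%), CAGGTG (8.63% against 6.84%), AACNNGTT of the grainyhead factors (2.78% against 1.92%) and TGTTCT of the steroid receptors (8.51% against 7.86%). In windows 1 kb away, AGATAA was at 7.82% of members and 7.32% of shared sites, and CAGGTG at 8.17% and 8.14%. The shared summits thus lay below their own windows 1 kb away for these 2 words, by −1.89 and −1.30 points, with no test. The shared summits had a mean GC content of 44.2% and the members one of 42.3%, and the fold was higher at the shared sites. The parts of these in the differences were tested only as alternatives, in which TGACTCA remained less frequent at the members.

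The joint Hox-Pbx words were less frequent at the members, in part beyond the counting error. TGATTGAT was at 0.405% of member summits and 0.702% of shared summits, a difference of −0.296 points (Fisher's exact test, adjusted p = 1.08e-05). For TGATTAAT the shares were 0.668% and 0.844%, a difference of −0.176 points (95% interval −0.326 to −0.0254) that did not pass after adjustment (Fisher's exact test, adjusted p = 0.0651), and for TGATTTAT the adjusted p was 0.0697 by the same exact test. The difference for TGATTAAT did pass at q of at most 0.01 (−0.183), in windows of 100 bp on either side (−0.333), within GC strata (−0.272) and without endogenous replicate 1 (−0.182). TAATGA was at 7.34% and 8.60% (adjusted p = 3.77e-07 by Fisher's exact test). TGACAG was 0.382 points more frequent at the members, with an interval of −0.123 to 0.888 (Fisher's exact test, adjusted p = 0.339). It did pass, again as more frequent at the members, within classes of fold (0.956 points), within GC strata (0.885 points) and in windows of 100 bp on either side (1.07 points). GGGCGG was at 0.711% of member and 1.81% of shared summits (adjusted p = 3.85e-32 by Fisher's exact test).

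The Pbx4-only genic sites were hard to tell from the members by these words. Only TGACTCA passed, at 16.8% of member and 16.1% of genic summits, a difference of 0.760 points (95% interval 0.310 to 1.21, Fisher's exact test, adjusted p = 0.00402). This was 1 word of 30 (3.33%) higher at the members and 0 words (0%) lower. At an unadjusted p under 0.05, 2 words were higher and 0 lower. TGACTCA no longer passed at a fold of at least 5, over 5 kb from a TSS or in windows of 25 bp on either side.

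**Figure D2:**
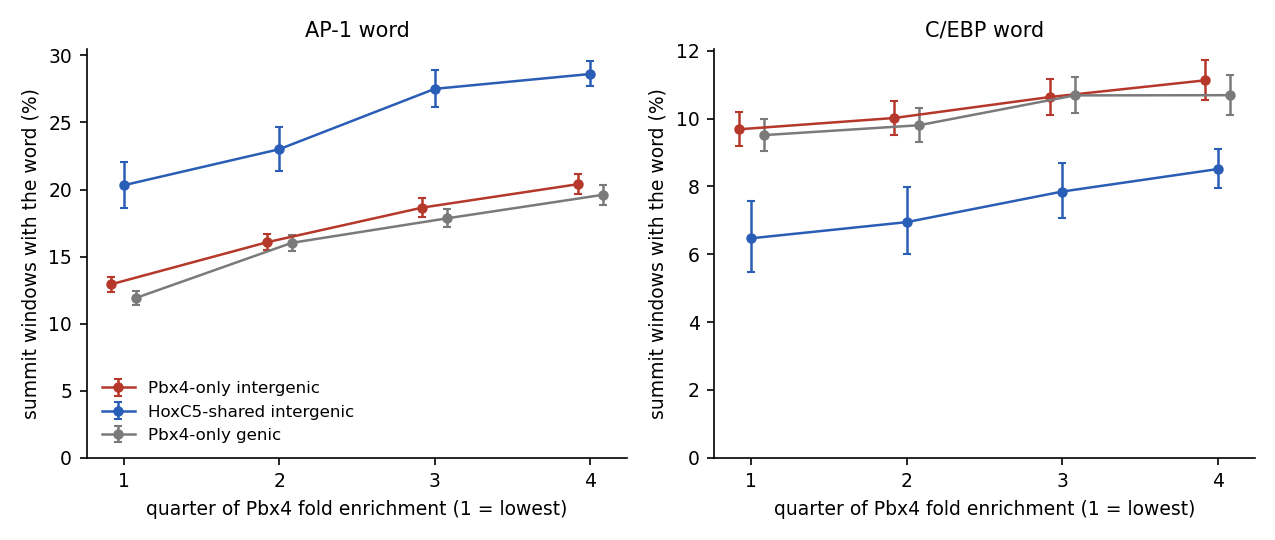
Share of summits with a factor word in percent (bars are 95% exact intervals) in 4 classes of Pbx4 fold (1 is the lowest), for the AP-1 word on the left and the C/EBP word on the right, with the same limits of fold for Pbx4-only intergenic, HoxC5-shared intergenic and Pbx4-only genic sites. The AP-1 word is more frequent at HoxC5-shared sites in each class of fold and the C/EBP word at both kinds of Pbx4-only sites.

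AP-1 words became more frequent with the Pbx4 fold. In 10 classes of near-equal size from the weakest to the strongest members, the share of summits with TGACTCA was 11.7% (median fold 3.52), 13.0%, 14.8%, 15.7%, 16.1%, 18.5%, 18.4%, 19.1%, 20.1% and 20.8% (median fold 12.5). At matched fold the members stayed below the HoxC5-shared sites. In 4 classes of fold with common limits, the share rose from 12.9% in the lowest to 20.4% in the highest at the members, from 20.3% to 28.6% at the shared sites and from 11.9% to 19.6% at the genic sites. C/EBP words were at 9.68% of member and 6.47% of shared summits in the lowest class and at 11.1% and 8.51% in the highest. Fold was a measure of the rule, so the order by fold is a description with no test.

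Members far from HoxC5 peaks held the AP-1 word more often than members close to one. TGACTCA was at 11.7% of summits (95% interval 10.9 to 12.6%) with a HoxC5 peak at most 1 kb away, 15.9% at over 1 to 10 kb, 18.0% at over 10 to 100 kb and 21.8% (20.5 to 23.2%) beyond 100 kb. The median folds of the first and the last class were 5.59 and 5.81. The rule had removed the sites that overlapped a HoxC5 peak. These HoxC5-shared intergenic sites held the word more often than the members of any of these distance classes. Distance from a HoxC5 peak was thus a measure of the rule, and the order by it is a description with no test. The share at the members also fell with the number of members in a cluster, from 19.1% at single sites to 14.2% in clusters of 10 or more. By distance from a TSS it stayed between 16.5% and 17.4%. By chromosome it ran from 15.2% on chromosome 8 to 20.5% on chromosome 16, with a median of 17.0%. GGGCGG did follow the distance from genes, from 1.29% of summits at 1 to 5 kb to 0.120% beyond 500 kb.

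The members covered the genome unevenly and were denser near genes. In the 1522 Mb that the rule allowed, there were 33.7 members per Mb, from 15.1 on chromosome X to 45.2 on chromosome 1 (median of chromosomes 33.5). Within 1 to 5 kb of the nearest protein-coding TSS there were 3092 members (6.03%, 95% interval 5.82 to 6.23%) in 3.62% of the allowed sequence, or 56.1 per Mb. The class of 5 to 10 kb held 5.91% of members in 4.24% of the sequence, that of 10 to 50 kb had 44.7 per Mb and that of 50 to 100 kb held 16.5% in 14.0%. Those of 100 to 500 kb and beyond 500 kb held 32.7% and 9.75% in 37.8% and 18.3%, and the density of the last was 18.0 per Mb. The HoxC5-shared sites had nearly the same shares, from 6.46% at 1 to 5 kb to 9.31% beyond 500 kb.

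**Figure D3:**
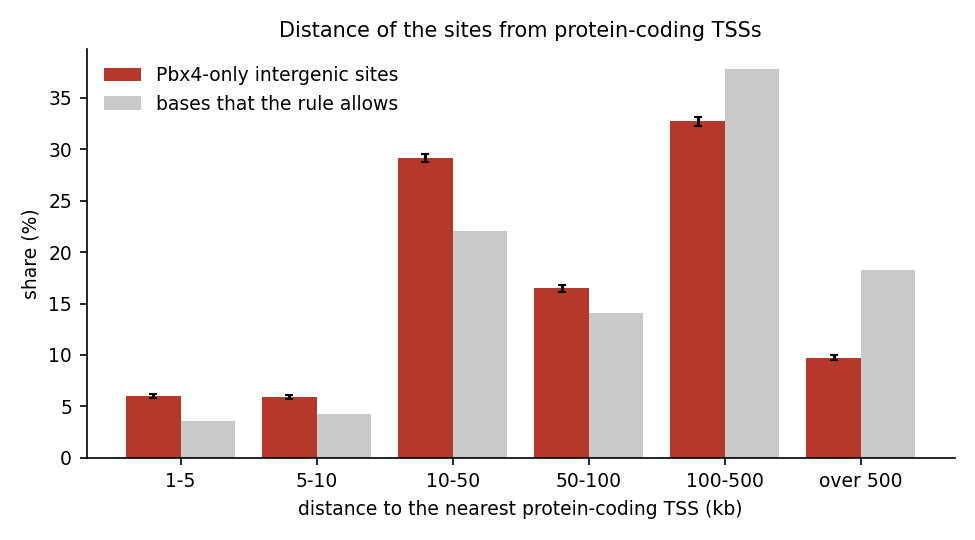
Distance of Pbx4-only intergenic sites from the nearest protein-coding TSS in kb, with the share of sites (red, bars are 95% exact intervals) and of the bases that the rule allows (grey) in each class in percent. The share of sites exceeds that of the bases in each class up to 100 kb and lies below it beyond.

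Intergenic here means away from protein-coding genes. The summit lay in a long non-coding RNA gene for 15638 members (30.5%, 28.2% of the allowed sequence) and in a pseudogene for 1.49% (1.82% of the sequence), and 67.9% lay in no annotated gene (69.8%). Within 1 kb of the TSS of a long non-coding RNA there were 1681 members (3.28%), where 1.98% of the sequence lay. The AP-1 word was at 14.6% of those summits and at 17.0% of the summits in no gene.

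Many members lay in groups. Joined where neighbouring summits were at most 12.5 kb apart, they made 24389 groups, with 12861 members alone (25.1%), 24505 in groups of 2 to 4 (47.8%) and 13953 in 2048 groups of 5 or more (27.2%). The group with most members, 28 at chr8:124555609-124647842, had its middle 48.3 kb from the TSS of FBXO32, a ubiquitin ligase subunit of muscle atrophy. This group held 33 Pbx4 peaks in all and 4 HoxC5 regions. The second, with 27 at chr1:31917560-32001493, held 28 Pbx4 peaks and 1 HoxC5 region. The third, with 26 at chr7:21082801-21152676, had its middle 291 kb from the TSS of SP8, a zinc finger factor of limb development. It held 0 HoxC5 regions among 26 Pbx4 peaks. Another 26 lay at chr5:102733697-102839100, in a group with its middle 112 kb from the TSS of NUDT12, a hydrolase of NADH. Of 24 members each were the groups near IER5, an immediate early gene (chr1:181042737-181128782), and TMEM106B, a lysosomal membrane protein (chr7:12040854-12147939). The folds in the first group ran from 3.06 to 17.2. Neighbouring members had a median distance of 11.2 kb, below the limit of 12.5 kb used to join them. The shares in groups thus depend on this limit and on the density of members. Grouping beyond that density was not tested.

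By the nearest TSS at any distance, the genes with most members stood beside long stretches without protein-coding genes. MYC, the growth-promoting transcription factor, had 139 at a median of 450 kb, 25 of them within 100 kb. NCAM2, a neural adhesion molecule, had 133 at a median of 861 kb with 0 within 100 kb, and ACVR2A, an activin receptor, had 127 at 812 kb. NUDT12 and GATA3 had 108 each, EFNA5, an ephrin ligand, 100, MRPL39, a mitochondrial ribosomal protein, 99, and ADGRL3 and PCDH7, adhesion receptors of neurons, 97 each. CITED2, a transcriptional coregulator, and TFAP2A, a transcription factor of ectoderm, had 91 each. Distance of this size does not tie a site to a gene.

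Within 100 kb of the nearest TSS there were 29535 members (57.6%), and 8457 of 19715 protein-coding genes (42.9%) had at least 1, at 44.2 members per Mb of the sequence nearest to them. The genes of the AP-1 family and of YAP and TEAD had more per Mb than all genes, and TALE genes and olfactory receptor genes had fewer. These lists are counts with no test, and their genes can share neighbourhoods.

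Of the 15 genes of the AP-1 family, 10 (66.7%) had a member, at 109 per Mb, led by FOS and JUN (14 each) and ATF3 (13). The 67 members of this list lay in 0.615 Mb of allowed sequence, and FOS shares its part of chromosome 14 with other genes of the list that had members. Of the 15 genes of YAP, TEAD and their targets 9 had one, at 90.3 per Mb, led by F3, the coagulation tissue factor (17), AMOTL2, a tight junction protein (15), and CCN2, a matrix protein (11). Of the 27 genes of the TGF-beta pathway 19 (70.4%) had one, at 65.9 per Mb, with the ligands INHBA (18) and BMP4 (16) and the ubiquitin ligase SMURF2 (15) ahead. Of the 17 genes of prostate luminal cells and the androgen response 12 (70.6%) had one, at 63.2 per Mb, led by NDRG1 (13), PMEPA1 (8) and the keratin KRT8 (6). Of the 16 genes of epithelial-mesenchymal transition 15 (93.8%) had one, at 60.3 per Mb, with the epithelial factor GRHL2 (13), the repressor SNAI2 (10) and the matrix protein FN1 (9) ahead. These shares were all above that of all genes, but the genes of these lists also had more allowed sequence nearest to them. Its median per gene was 15.5 kb for all genes. In these lists it ran from 21.7 kb for the AP-1 family to 90.2 kb for epithelial-mesenchymal transition. The shares, unlike the members per Mb, were not adjusted for this.

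The forkhead factors had a member at 18 of 22 genes (81.8%) but 42.4 per Mb, near the density over all genes, with FOXQ1 (13), FOXO3 (12) and FOXK1 (8) ahead. The HOX genes had one at 12 of 39 (30.8%), led by HOXC13 (8) and with 6 at HOXB1, and 71.0 per Mb. Of these 39 genes 24 had any allowed sequence nearest to them, and of all 19715 genes 15789 did, so the others could hold no member. The TALE genes, to which PBX4 and the MEIS genes belong, had one at 6 of 17 (35.3%), at 21.2 per Mb, with TGIF1 (12), MEIS1 (7) and IRX2 (5). The olfactory receptor genes had one at 99 of 388 (25.5%), at 16.4 per Mb, with OR6J1 (9), OR10A6 (7) and OR2AT4 (5). Their density was the lowest of the 9 lists. The allowed sequence was not masked where reads map with low quality. The part of mapping quality in these densities was not tested.

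**Figure D4:**
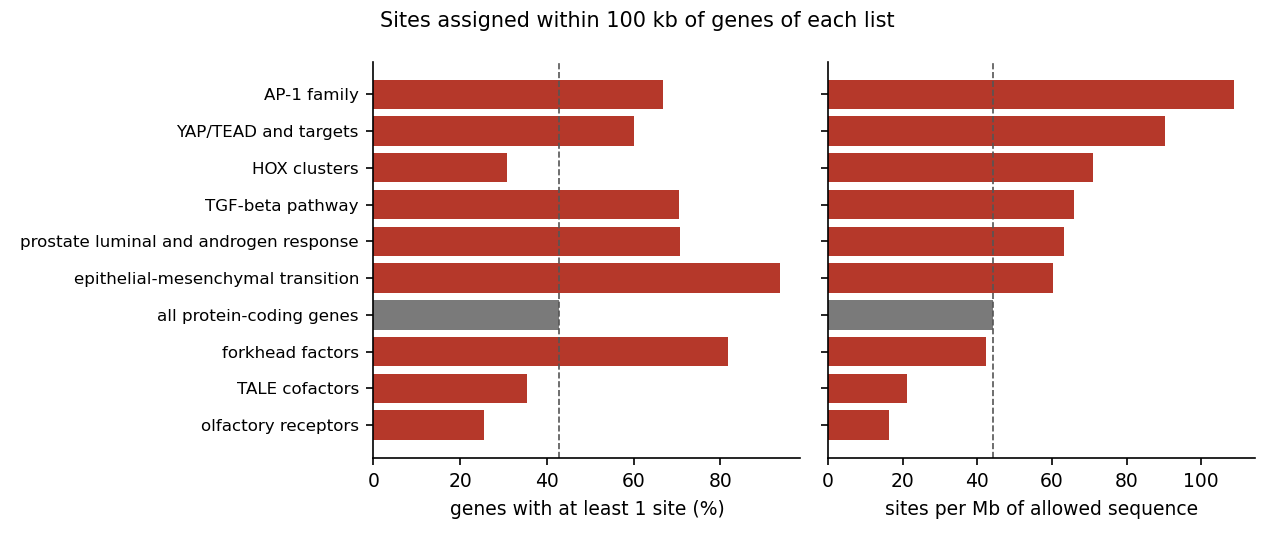
Pbx4-only intergenic sites assigned to the genes of 9 lists, as the percent of genes with at least 1 site within 100 kb on the left and as sites per Mb of allowed sequence on the right, with all protein-coding genes in grey and at the dashed lines. In sites per Mb the AP-1 family stands at 109 per Mb, all genes at 44.2 and the olfactory receptors at 16.4.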

How the data were processed

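The authors mapped ChIP-Seq reads to hg19 with BWA-MEM, filtered them with SAMtools and called peaks with MACS2 for each library. The MACS2 version, the controls and any mask of problem regions are not given in the sources used here. The deposited lists give each peak's position and summit, its fold enrichment as a ratio to local background, −log10 p-value and q-value, and a score derived from q. The 4 input libraries were not used. No peaks were called or rescaled here.

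Overlap was at least 1 bp with any HoxC5 peak. Genes were those of GENCODE release 44 on GRCh37, the build of hg19. Words were counted on both strands within 50 bp of the summit and 1 kb to its right and compared by two-sided exact McNemar tests, and between classes by two-sided Fisher's exact tests, each with Benjamini-Hochberg adjustment at 0.05. Intervals of differences are normal approximations at 95%. The allowed sequence was the part of chromosomes 1 to 22 and X with known bases outside protein-coding genes and over 1 kb from their TSSs. Sites were assigned to the gene of the nearest TSS, for gene lists within 100 kb. The tests were tested on simulated data. Python 3.11.15 was used with numpy 2.4.6, pandas 2.3.3, scipy 1.17.1, pysam 0.24.0 and matplotlib 3.10.9.

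The members, the words and the gene lists were chosen with earlier results of these data known. Named were the 10 sites of highest fold, the 5 of lowest q and the site of lowest q with each of 4 words, the 5 groups with most sites with ties, the 10 genes nearest to most sites with ties, the 3 genes of each list with most sites, the AP-1, Hox, Pbx and Meis words with the 5 others of largest and the 3 of smallest difference, and the 10 words of 6 letters of largest and the 5 of smallest difference. Other named words were chosen after their values were seen. Of the items under this rule, 1 site and 1 gene of a list are not reported here. Alternatives were stricter q and fold limits, HoxC5 overlap within 500 bp, each endogenous replicate left out, other gene sets and TSS distances, other windows and flanks, GC pairing and strata, fold strata, 1 site per 10 kb and the 500 sites of lowest q.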

Additional observations from a re-analysis of the deposited data

How the results depend on the processing

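Of 315 pairs of a result and 1 of 17 alternatives, 278 were unchanged. A tested result was unchanged if it kept its direction and its side of the threshold, and a count if it stayed within a set factor of its main value. The AP-1 difference at the summits stayed positive, from 7.43 to 22.8 points, the Meis difference from 2.26 to 6.6 points, and the AP-1 difference from HoxC5-shared sites stayed negative, from −14.8 to −5.05 points. With genes of every type in place of protein-coding genes, the sites numbered 33907. Leaving out endogenous replicate 1 or 2 gave 51420 and 51321 sites. TGATTGAT at the summits, which did not pass in any of these, turned negative at a fold of at least 5 (−0.0113 points), with HoxC5 within 500 bp counted as shared (−0.0144), over 5 kb from a TSS (−0.00207), in windows of 25 bp (−0.0136) and 100 bp (−0.0799), against the left flank (−0.0195) and with 1 site per 10 kb (−0.0167). TGATTTAT turned to −0.0147 with genes of every type, TAATGA to −0.6 in the 500 sites of lowest q, and AGATAA to 0.0507 against a flank 5 kb away and 0.164 in windows paired by GC. In the 500 sites, TGATTAAT differed by 1.0 point (exact McNemar test, adjusted p = 0.25), 5 of the 30 words and 67 six-letter words were called, fewer sites being tested, and in windows paired by GC 479 six-letter words were. GGGCGG was lost in windows paired by GC (−0.0871). TGATTAAT against the shared sites passed at q of at most 0.01 (−0.183), in windows of 100 bp (−0.333) and within GC strata (−0.272), and with an endogenous replicate left out ran from −0.182 (without replicate 1, where it passed) to −0.176. TGACAG against the shared sites passed in windows of 100 bp (1.07), within classes of fold (0.956) and within GC strata (0.885). AP-1 against the genic sites no longer passed at a fold of at least 5 (0.602), over 5 kb from a TSS (0.287) or in windows of 25 bp (0.296). The cause of these changes was not tested. No paired analysis was possible because the peak lists give no value per replicate of a site, the input libraries have no list and Pbx4 has 1 library. With 1 Pbx4 library, no depth and no list of repeats or problem regions used here, a site's own call has no check.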
